A study of Homo sapiens with 6 samples.

Results

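The 10 histone chaperone genes described here were measured in TFK-1 cells, a human line established from a bile duct cancer (extrahepatic cholangiocarcinoma, ECCA), after overexpression of HOXA5, a homeobox transcription factor. The members are NASP, CHAF1A, CHAF1B, ASF1A, ASF1B, HAT1, HIRA, DAXX, ATRX and SSRP1. They were taken as every probe of the array whose only gene symbol in the platform table is one of these 10, which gave 14 of 31741 probes and 10 of 18336 genes. Of these genes, 4 have 2 probes and 6 have 1 probe. The groups are 3 samples labelled HOXA5 overexpression and 3 labelled normal control, and each sample was read on 1 single-colour Human OneArray slide. Both groups are TFK-1 cells that were transduced with lentivirus at a multiplicity of infection of 20 for 24 h and then selected with puromycin at 1 μg/ml. The study's methods give the transgene as Flag-tagged HOXA5 and the control as a matched negative-control virus. They do not say whether a line derives from 1 clone. Whether the 3 samples of a group were separate cultures is not stated, so p-values describe only how these samples scattered, and that scatter may be technical.

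Histone chaperones escort histones that are not in nucleosomes, from their import into the nucleus to their deposition on DNA. During S phase, newly made H3 and H4 are held by NASP, acetylated by HAT1, passed to ASF1 and deposited behind the replication fork by CAF-1, whose large and middle subunits are encoded by CHAF1A and CHAF1B. Outside replication, HIRA deposits the variant H3.3 at active genes, and DAXX with ATRX deposits it at telomeres and other heterochromatin. SSRP1 is a subunit of FACT, which loosens and restores nucleosomes during transcription and replication. In proliferating cells the replication-coupled chaperones are made in step with DNA synthesis.

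Median raw intensity was 126 to 180 on the control arrays and 95 to 177 on the HOXA5 arrays, with the lowest on HOXA5 replicate 3. That array also had the fewest probes at flag 0, the deposited value that marks brighter probes (17150, against 19327 to 21154 on the others). Probes at the other flag value are called dim here. HOXA5 replicate 2 correlated with its group at 0.979 and 0.973 over all probes (Pearson's r across probes, which are not replicates), while HOXA5 replicates 1 and 3 correlated at 0.992. HOXA5 RNA was read in every sample by 2 probes, and whether they read the transgene, the cell's own gene or both was not tested. The HOXA5 probe of higher mean (PH_hs_0035417), dim on 1 control array, had raw intensities of 110, 118 and 49 in controls. In overexpressing cells it had 585, 502 and 312 (log2 fold change 1.94 ± 0.12). The other HOXA5 probe (PH_hs_0002929) gave -0.34 ± 0.07, a call lost under 10 of 15 alternatives. Of 8 markers of biliary epithelium 6 were measured, and 5 of them (KRT19, KRT8, EPCAM, CDH1 and SOX9) were at flag 0 on all 6 arrays. KRT19, CDH1 and SOX9 rose, while KRT7 (-0.19), KRT8 (-0.13) and EPCAM (0.14) did not pass the test. The summed normalized intensity of the 6, of which KRT19 was the brightest, was 57158 to 61345 in controls and 77525 to 82480 under HOXA5. Of 12 markers of other cell types, 5 were dim on all 6 arrays (COL3A1, DCN, PTPRC, CD3E and ALB) and 4 were at flag 0 on all 6. APOA1, a hepatocyte gene, rose by 0.89 (SE 0.19, limma, adjusted p = 0.0279) and was the only 1 of the 12 that passed. The summed intensity of the 12 was 1892 to 2331 in controls and 2196 to 3374 under HOXA5. The part of these shifts in the results below was not tested.

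HOXA5 overexpression was accompanied by lower transcript levels of most of the histone chaperones. Of the 10 genes, 7 fell (NASP, CHAF1A, CHAF1B, HAT1, HIRA, DAXX and SSRP1), at a limma adjusted p under 0.05 over all probes, and 0 rose, also at an unadjusted p under 0.05. Across all genes at the same threshold, 11.0% fell and 13.1% rose. By at least 2-fold, 4 members fell (CHAF1A, HAT1, CHAF1B and NASP), against 2.39% of all genes, and 0 rose by as much, against 3.83%. These shares are descriptions and not tests, because the members were chosen with earlier results of these data known. With only probes at flag 0 on at least 3 arrays, 7 members fell, beside 14.7% of the genes kept. ASF1A, ASF1B and ATRX did not pass the test, with changes of -0.16, -0.06 and -0.11. The median change over the 10 genes was -0.74, beside -0.01 over all genes. Each gene is represented here by its probe of highest mean, and each change is the log2 ratio of HOXA5 overexpression to control ± SE (n = 3 arrays a group), on the scale of intensity plus an offset of 50. By probe, 9 of 14 fell (5 of them at least 2-fold) and 0 rose, where 9.56% of all probes fell (1.98% at least 2-fold) and 11.0% rose. For these 9 probes, which stand for the 7 genes, every HOXA5 array lay below every control array. The same held for 19.5% of all probes and 20.4% of all genes. In bulk RNA, fewer cells that express a gene and less RNA per cell cannot be told apart.

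**Figure D1:**
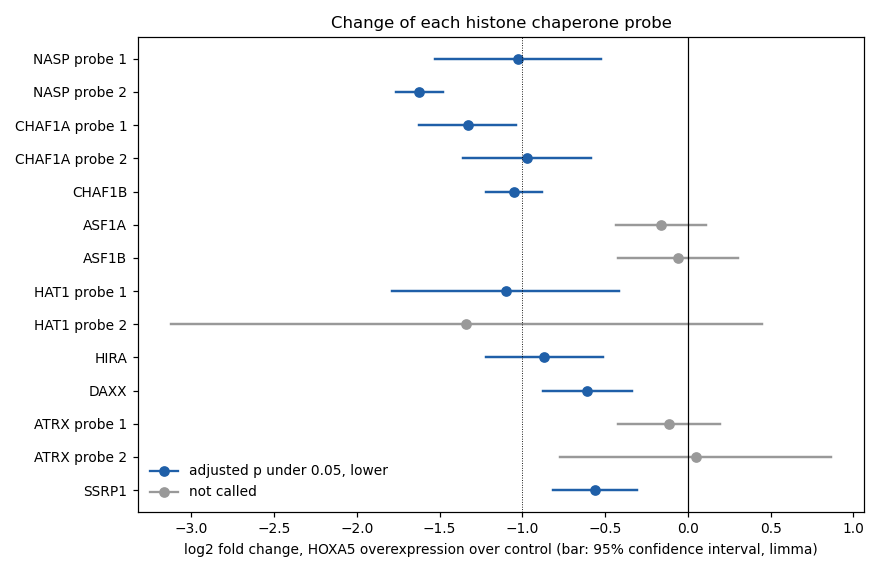
Log2 fold change of each of the 14 histone chaperone probes, HOXA5 overexpression over control (x axis, log2 units), with 95% confidence intervals from limma as bars; blue marks probes past the adjusted p and grey the others, and the dotted line is a 2-fold fall. The intervals of both NASP probes, both CHAF1A probes, CHAF1B, HAT1 probe 1, HIRA, DAXX and SSRP1 lie below 0, and those of ASF1A, ASF1B, HAT1 probe 2 and both ATRX probes include it.

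**Figure D2:**
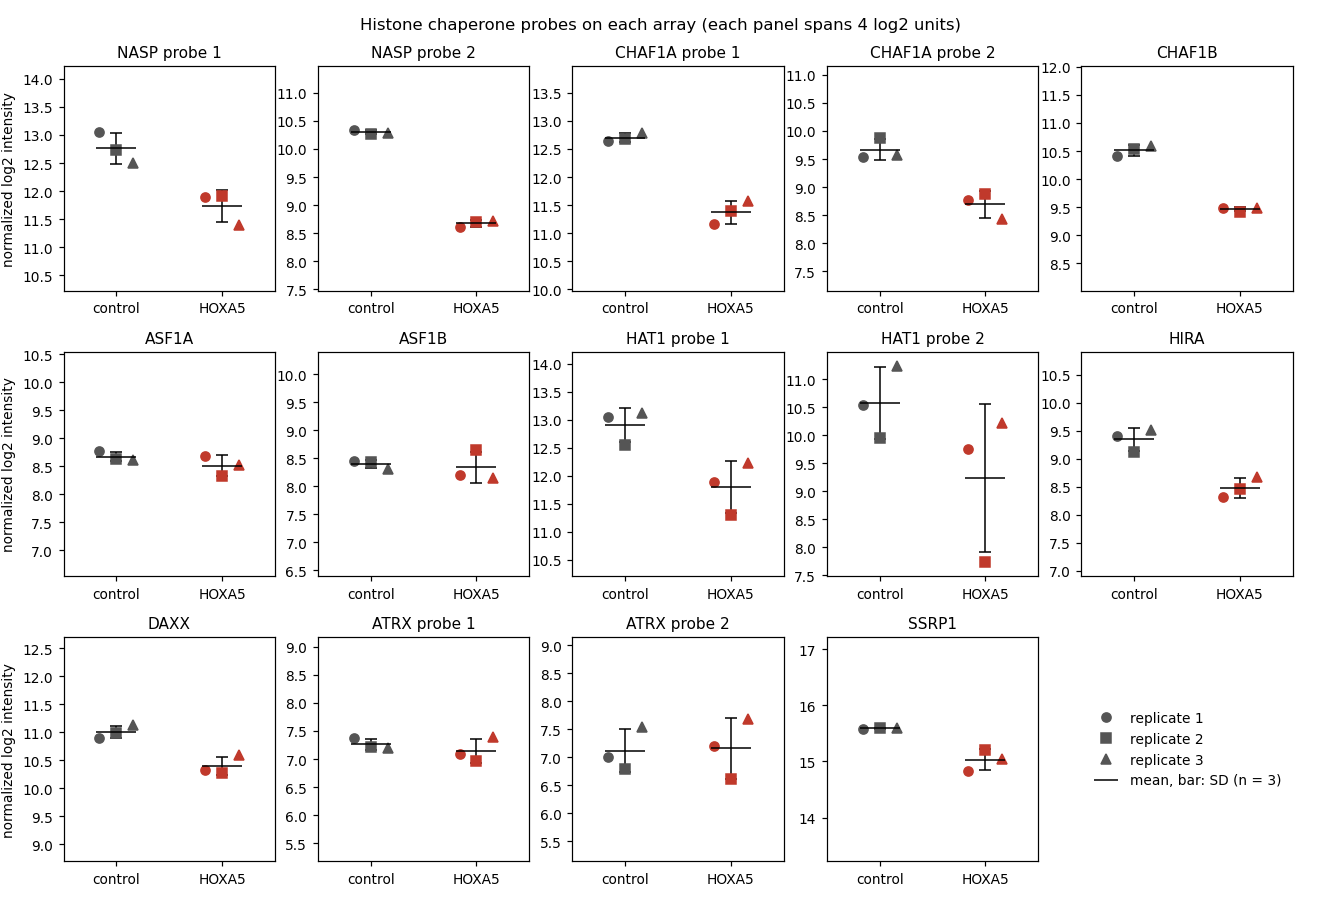
Normalized log2 intensity (y axis) of each histone chaperone probe on the 3 control arrays (grey) and the 3 HOXA5 arrays (red), with the replicate number as the symbol, the mean as a line and the SD as a bar. Groups are apart for 9 probes and overlap for ASF1A, ASF1B, HAT1 probe 2 and both ATRX probes.

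CAF-1, the assembly factor that rides on the replication fork, was lower in its large and middle subunits, while its small subunit, RBBP4, did not pass the test (0.20 ± 0.06). CHAF1A (chr19:4402640-4450830, GRCh38.p14 as in RefSeq, like all coordinates here) encodes the large subunit. Its brighter probe (PH_hs_0033183) had raw intensities of 7229, 7702 and 6534 in controls and 2537, 2718 and 2151 under HOXA5. Every HOXA5 array lay far under every control array, and the change was -1.33 ± 0.12 (limma, adjusted p = 0.00186), or 39.8% of the control level. The second CHAF1A probe (PH_hs_0004560) read 795, 1008 and 617 in controls and 458, 469 and 193 under HOXA5, a change of -0.97 ± 0.16 (adjusted p = 0.0104). It also had no overlap, and the authors' processed values moved its adjusted p to 0.0911. CHAF1B (chr21:36385392-36419015), the middle subunit, which contacts ASF1, read 1499, 1645 and 1323 in controls and 776, 694 and 469 under HOXA5. After normalization its HOXA5 arrays lay within 0.04 (SD) of each other at a mean of 9.46, against 10.51 ± 0.10 in controls, and the change was -1.05 ± 0.07 (limma, adjusted p = 0.000842). The brighter CHAF1A probe and CHAF1B kept their calls under all 15 alternatives. The within-array difference of the brighter CHAF1A probe and CHAF1B shifted by -0.28 ± 0.12 (95% interval -0.62 to 0.07). An exact two-sided permutation test over the 6 arrays gave p = 0.1, the smallest p this design allows (0.2 after adjustment over 4 such differences). The second CHAF1A probe, at -0.97, changed less than CHAF1B, at -1.05, and that difference was not tested.

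NASP, which shelters soluble H3 and H4 from degradation, was lower with both probes, though to different degrees. The study followed it as a protein of proliferating cells. By Western blot it reports less NASP protein with HOXA5 overexpression in TFK-1 and in EGI-1, another ECCA line, whereas the values here are RNA. NASP lies at chr1:45584041-45618893. The brighter probe (PH_hs_0028482) gave raw intensities of 9687, 8037 and 5272 in controls and 4152, 3853 and 1917 under HOXA5. The third array of each group was the lowest, yet the groups did not overlap, and the change was -1.02 ± 0.20 (limma, adjusted p = 0.0206). The other NASP probe (PH_hs_0048346) gave 1431, 1360 and 1051 against 401, 412 and 250. Once normalized it hardly varied within a group (SD 0.04 in controls and 0.06 under HOXA5), and it changed by -1.62 ± 0.06 (adjusted p = 0.000237), which leaves 32.5% of the control level, compared with 49.2% for the brighter probe. The second probe changed by -0.60 ± 0.24 relative to the first (95% interval -1.26 to 0.07), and the within-array differences of the groups overlapped. An exact two-sided permutation test gave p = 0.2 (adjusted p = 0.267). With 0.1 as its smallest possible p, that test cannot decide whether the probes differ. In limma the brighter probe missed the threshold when control replicate 1 was left out (adjusted p = 0.0662), when control replicate 2 was (adjusted p = 0.0679) and with the authors' processed values (adjusted p = 0.0712), while the other probe passed under all 15 alternatives. RefSeq lists a pseudogene of NASP (NASPP1), and whether either probe reads it was not tested.

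By the distance between profiles over the 6 arrays, each centred on its mean, the detected genes most like the brighter NASP probe among 13376 were SCAMP2 (distance 0.12 log2 units), ALG1L1P (0.14), PRP4K (0.21), RPL31 (0.21) and HOXA9 (0.26). Among them ALG1L1P changed by -1.04 ± 0.16 and RPL31 by -1.07 ± 0.21, and HOXA9 was at -0.89 ± 0.25 (limma, adjusted p = 0.0580).

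HAT1, the type B acetyltransferase that marks newly made H4 before deposition, was also lower, and its second probe had the widest scatter of the 14. The gene lies at chr2:171922461-171983686. Its brighter probe (PH_hs_0001286) read 9720, 7049 and 8151 in controls and 4139, 2551 and 3436 under HOXA5. The groups did not overlap, and the change was -1.10 ± 0.28 (limma, adjusted p = 0.0432). The second probe (PH_hs_0035355) read 1645, 1064 and 2144 in controls and 942, 191 and 806 under HOXA5. Here normalized values of 9.95 to 11.23 in controls overlapped with 7.74 to 10.21 under HOXA5, and the change of -1.34 ± 0.72 missed the threshold (95% interval -3.12 to 0.45, adjusted p = 0.267). On both probes, replicate 2 was the lowest array of each group, and the second probe on HOXA5 replicate 2 deviated by -1.49 from the group mean. The second ATRX probe showed the same order in both groups. HAT1 stood close to the threshold, since its brighter probe lost the call in limma when control replicate 1, 2 or 3 was dropped (adjusted p = 0.147, 0.0591 and 0.128), without HOXA5 replicate 1 (adjusted p = 0.102) and with an offset of 100 (adjusted p = 0.0512), while its change stayed between -1.31 and -0.85 over the 15 alternatives.

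**Figure D3:**
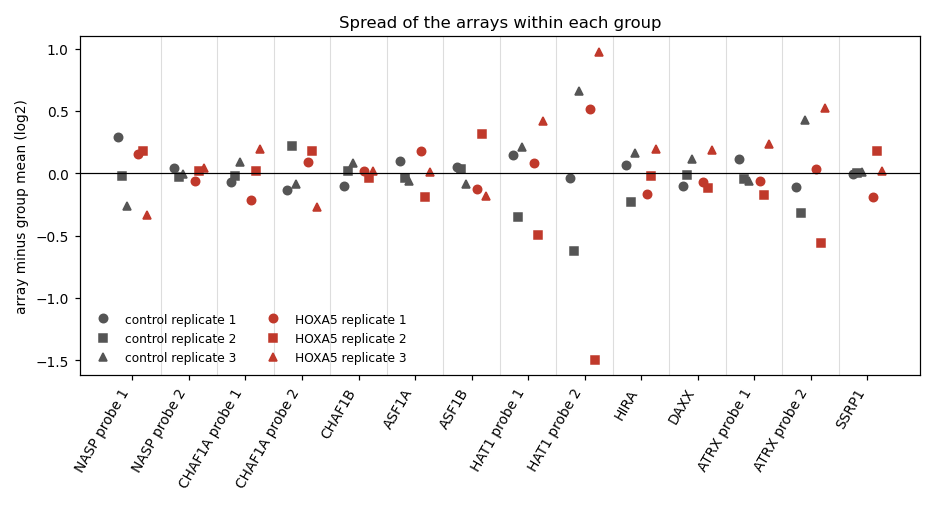
Difference of each array from the mean of its own group (y axis, log2 units) for the 14 histone chaperone probes, with controls in grey, HOXA5 overexpression in red and the replicate number as the symbol. HAT1 probe 2 is the widest, from -1.49 to 0.98, and the replicate 2 arrays are the lowest of their groups for both HAT1 probes and ATRX probe 2.

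The paralogs ASF1A and ASF1B, which hand H3 and H4 to CAF-1 or HIRA, were the replication-linked members that did not pass the test. ASF1A (chr6:118894152-118909171, PH_hs_0023538) read 452, 389 and 287 in controls and 430, 308 and 211 under HOXA5. Its normalized values overlapped between groups, and the change was -0.16 ± 0.11 (95% interval -0.43 to 0.11, limma, adjusted p = 0.378). ASF1B (chr19:14119512-14136589, PH_hs_0042341), the paralog known for its tie to proliferation, read 353, 330 and 226 in controls and 289, 399 and 152 under HOXA5. It changed by -0.06 ± 0.15 (95% interval -0.42 to 0.30, adjusted p = 0.830). HOXA5 replicate 2 was the highest of all 6 arrays for ASF1B after normalization, at 8.65, while the other HOXA5 arrays, at 8.21 and 8.15, lay under every control array (8.31 to 8.45). Without HOXA5 replicate 2 the change of ASF1B was -0.22 (limma, adjusted p = 0.0778). Without HOXA5 replicate 1 or 3 it was 0.004 and 0.03 (limma, adjusted p = 0.993 and 0.931). A 2-fold fall lies outside the intervals of both genes. ASF1B shifted by 0.10 ± 0.26 relative to ASF1A (95% interval -0.61 to 0.81, exact two-sided permutation test, p = 1), and by -0.15 without HOXA5 replicate 2.

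Of the chaperones that act outside replication, HIRA and DAXX fell and ATRX did not pass the test. HIRA (chr22:19330698-19431733, PH_hs_0025021), the scaffold of the H3.3 complex with UBN1 and CABIN1, read 726, 564 and 585 in controls and 316, 343 and 241 under HOXA5. The groups were apart, and the change was -0.87 ± 0.14 (limma, adjusted p = 0.0112), or 54.9% of the control level. Without control replicate 1 its adjusted p was 0.0542. DAXX (chr6:33318558-33322959, PH_hs_0032729), the H3.3 chaperone of heterochromatin, read 2112, 2312 and 1961 in controls and 1419, 1244 and 1067 under HOXA5. It fell by 0.61 on the log2 scale (SE 0.11, adjusted p = 0.0147), with no overlap, and stood at adjusted p = 0.0558, 0.0548 and 0.0510 without control replicate 2, control replicate 3 or HOXA5 replicate 1. ATRX (chrX:77504880-77786216), the chromatin remodeler that recruits DAXX, was close to background. Its brighter probe (PH_hs_0025806) read 141, 112 and 81 in controls and 105, 93 and 66 under HOXA5, and the other (PH_hs_0048183) read 99, 67 and 114 against 116, 55 and 99, with replicate 2 of both groups dim. The changes were -0.11 ± 0.12 (95% interval -0.42 to 0.19, limma, adjusted p = 0.599) and 0.05 ± 0.33 (adjusted p = 0.946), and the groups overlapped with both probes. RefSeq lists a pseudogene of HIRA (HIRAP1) as well, and whether the probe reads it was not tested.

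SSRP1 (chr11:57325988-57335892, PH_hs_0004576), the smaller subunit of FACT, had a very bright probe, with raw intensities of 52862, 56768 and 44532 in controls and 30770, 37910 and 25614 under HOXA5. No array reached the intensity of 65000 taken as saturated, and the groups did not overlap. SSRP1 changed by -0.56 ± 0.10 (limma, adjusted p = 0.0158), which is 67.7% of the control level, the smallest change among the 7 genes that fell. Its adjusted p was 0.0628, 0.0580 and 0.0580 without control replicate 1, 2 or 3. SUPT16H, the larger FACT subunit, read 10669, 10823 and 8796 in controls and 4428, 4991 and 3737 under HOXA5 and fell by 0.96 (SE 0.11, adjusted p = 0.00392). Relative to SUPT16H, SSRP1 shifted by 0.39 ± 0.07 (95% interval 0.19 to 0.60), with the within-array differences of the groups apart (exact two-sided permutation test, p = 0.1, the smallest possible, adjusted p = 0.2).

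Because most members moved the same way, their promoters were read for motifs of factors that act on cell cycle genes. RefSeq promoter windows (GRCh38.p14) from 250 bases before to 50 bases after the gene start were matched for 8 of the 10 members. The motifs, searched on both strands, were the E-box CACGTG bound by MYC, MAX and MXD1, the E2F sites TTTCCCGC or TTTGGCGC, the NF-Y site CCAAT, the cell cycle homology region TTTGAA and the homeodomain site TAATTA. The NF-Y site was in 5 of the 8 windows (NASP, CHAF1A, ASF1A, ASF1B and HAT1) and in 34.6% of all 35116 windows. An E-box was found in CHAF1A alone among the members (7.26% of all windows), an E2F site in HIRA alone (2.27%) and TTTGAA in ASF1B alone (15.2%), while TAATTA was in 0 of 8 (4.84%). These matches are descriptions of letters and not of bound sites, and the windows of CHAF1B and SSRP1, both of which fell, held none of them. The 250 bases before the start of 4 members follow, written along the gene's own strand. They are CHAF1A (chr19:4402390-4402639, plus strand), NASP (chr1:45583791-45584040, plus strand), HIRA (chr22:19431734-19431983, minus strand) and ASF1B (chr19:14136590-14136839, minus strand). CHAF1A, which holds the E-box, had the largest change among the 10 genes by the probe of highest mean. The second NASP probe changed more (-1.62 ± 0.06). HIRA holds the E2F site, and ASF1B, which did not pass the test, holds 3 CCAAT boxes and TTTGAA. Capitals mark the motif letters on either strand, so that an NF-Y site on the other strand reads ATTGG.
CHAF1A: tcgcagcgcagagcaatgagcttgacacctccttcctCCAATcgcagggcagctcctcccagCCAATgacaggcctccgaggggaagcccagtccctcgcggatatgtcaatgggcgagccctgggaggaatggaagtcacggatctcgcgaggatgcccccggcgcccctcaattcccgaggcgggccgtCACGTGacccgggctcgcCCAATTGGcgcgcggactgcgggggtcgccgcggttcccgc
NASP: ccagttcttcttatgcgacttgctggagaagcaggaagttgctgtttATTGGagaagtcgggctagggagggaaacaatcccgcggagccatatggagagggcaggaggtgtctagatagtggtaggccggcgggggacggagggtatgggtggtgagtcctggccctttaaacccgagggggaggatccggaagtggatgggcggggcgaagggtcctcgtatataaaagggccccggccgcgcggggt
HIRA: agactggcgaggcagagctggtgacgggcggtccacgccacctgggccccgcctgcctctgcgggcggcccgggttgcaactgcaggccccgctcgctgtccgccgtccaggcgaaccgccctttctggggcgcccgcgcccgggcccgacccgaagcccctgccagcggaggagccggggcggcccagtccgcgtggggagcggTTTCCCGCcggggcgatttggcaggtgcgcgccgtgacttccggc
ASF1B: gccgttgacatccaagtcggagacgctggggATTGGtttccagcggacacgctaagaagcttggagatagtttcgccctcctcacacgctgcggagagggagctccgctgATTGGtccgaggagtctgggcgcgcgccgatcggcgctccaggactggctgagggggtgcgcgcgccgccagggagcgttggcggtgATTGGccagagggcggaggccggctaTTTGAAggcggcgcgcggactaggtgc
In CHAF1A the E-box began 59 bases before the start and a pair of overlapping NF-Y sites, 1 on each strand, began at 41 and 38. In ASF1B the 3 CCAAT boxes began at 219, 140 and 53 bases before the start and TTTGAA at 27, and in HIRA the E2F site began at 45.

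Other histone chaperones and the members' partners were also lower in part. In a list of 30 such genes, 14 fell and 0 rose (limma, where 11.0% of all genes fell), with 1 (RBBP4) higher at an unadjusted p under 0.05 and a median change of -0.39. Like the members, this list and those on the supply of histones below were chosen with earlier results of these data known. MCM2, the helicase subunit that also binds H3 and H4 at the fork, read 8041, 8195 and 5453 in controls and 1535, 2304 and 1092 under HOXA5, the largest change of the list at -1.97 ± 0.20. DNAJC9, a heat shock cochaperone that holds H3 and H4, read 16905, 17940 and 13077 against 6809, 5860 and 3942 and changed by -1.31 ± 0.07. TONSL, which reads new H4 on replicated DNA with MMS22L, changed by -1.21 ± 0.10, while MMS22L was at -0.21 ± 0.11 (limma, adjusted p = 0.269). IPO4, the importin that carries H3 and H4 with ASF1 into the nucleus, changed by -1.11 ± 0.15. GRWD1, a nucleolar histone-binding protein (-1.24 ± 0.19), nucleolin, encoded by NCL (-0.90 ± 0.12), and ANP32B, an acidic nuclear protein (-0.88 ± 0.12), made up, with SUPT16H, the 8 largest called changes. These 8 genes passed the adjusted p under all 15 alternatives.

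Of 5 partners in the members' own complexes, SUPT16H fell and the other 4 did not pass the test. RBBP4, the small subunit of CAF-1, read 377, 350 and 248 in controls and 417, 424 and 243 under HOXA5, and it was at 0.20 ± 0.06 (limma, adjusted p = 0.0618), and passed with cyclic loess (adjusted p = 0.0387) and with an offset of 100 (adjusted p = 0.0402). RBBP7, which partners HAT1, was at -0.74 ± 0.29 (adjusted p = 0.145), and it was lowest on HOXA5 replicate 2, as HAT1 was. In the HIRA complex, UBN1 was at -0.30 ± 0.09 (adjusted p = 0.0790, and 0.0495 with cyclic loess) and CABIN1 at 0.04 ± 0.14 (adjusted p = 0.888). The brightest NPM1 probe was saturated on 5 of 6 arrays, so that its change is not given, and the other NPM1 probes were at -0.76 (limma, adjusted p = 0.128) and -0.43 (adjusted p = 0.151). CDAN1, which holds ASF1 in the cytosol, was among the 14 that fell (-0.31 ± 0.07) but was dim on all 6 arrays.

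**Figure D4:**
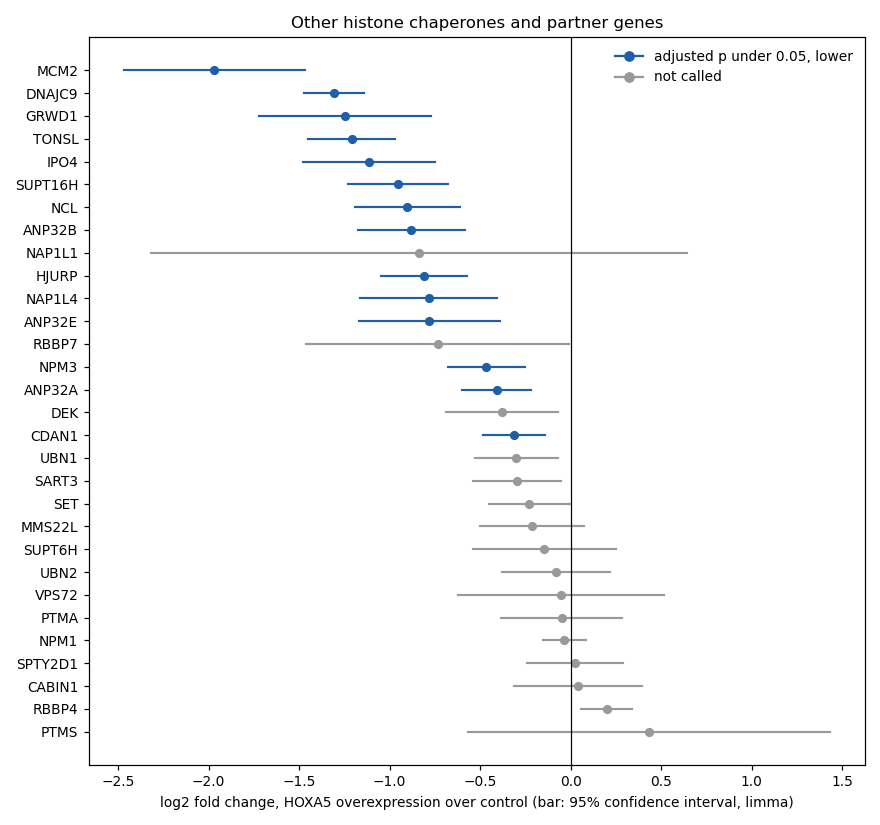
Log2 fold change, HOXA5 overexpression over control (x axis, log2 units), of 30 other histone chaperones and partner genes, each by its probe of highest mean, with 95% confidence intervals from limma as bars and blue for genes past the adjusted p. Of these, 14 genes fell, led by MCM2 at -1.97, and 26 of the 30 lie below 0, while PTMS, RBBP4, CABIN1 and SPTY2D1 lie above it without passing the test, and the point of NPM1, saturated on 5 arrays, is no measure of its change.

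A pair of further lists describes the supply of histones. Among 7 genes that make or process histone mRNA, 1 fell and 1 rose, which is near the shares of all genes (11.0% lower and 13.1% higher). SLBP, the protein that binds the stem-loop of replication-dependent histone mRNAs, read 4796, 4108 and 3775 in controls and 2526, 2032 and 1858 under HOXA5 and fell by 0.80 (SE 0.13, limma, adjusted p = 0.0104, and 0.0512 without control replicate 1). ZNF473 changed by 0.33 ± 0.06 (adjusted p = 0.0157), a call lost under 6 of 15 alternatives, and ERI1, an exonuclease that trims these mRNAs, was at 0.49 ± 0.14 (adjusted p = 0.0629). Of 6 measured variant histone genes, 4 fell and 1 rose, against the same 11.0% and 13.1% of all genes. CENPA, the H3 variant of centromeres, changed by -0.53 ± 0.06 with its brighter probe and by -0.13 ± 0.16 with the other (limma, adjusted p = 0.636). MACROH2A1 changed by -0.82 ± 0.12. H3-3B, which encodes the H3.3 that HIRA and DAXX deposit, read 9282, 11128 and 7196 in controls and 11828, 13299 and 9445 under HOXA5 and rose by 0.59 (SE 0.10, adjusted p = 0.0141). This call of H3-3B was lost with median scaling, 75th percentile scaling and the authors' processed values (adjusted p = 0.128, 0.102 and 0.172) and without control replicate 1 or 3 (adjusted p = 0.0640 and 0.0539).

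The count of members past the threshold changed when a control array was left out, while the size of the changes moved little. It was 3, 3 and 4 of 10 without control replicate 1, 2 or 3, when 5.85%, 6.16% and 6.69% of all genes fell, and 5, 7 and 7 without HOXA5 replicate 1, 2 or 3, when 8.13%, 14.3% and 8.06% of all genes fell. The median change of the 10 genes was -0.75, -0.79 and -0.68 without control replicate 1, 2 or 3, beside -0.74 with all arrays. It was -0.68, -0.74 and -0.78 without HOXA5 replicate 1, 2 or 3. All 10 changes stayed negative without any 1 control array and without HOXA5 replicate 2. Without HOXA5 replicate 1 or 3, 9 were negative, and ASF1B was at 0.004 and 0.03. CHAF1A and CHAF1B were called in each of these 6 fits.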

How the data were processed

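Per the labels, total RNA was amplified and labelled with Cy5. Per the study's methods, Human OneArray slides were then hybridized, and an Agilent scanner was used to read them and extract the values. The authors deposited raw intensity per probe and array, with a flag and a detection p-value, whose 6 columns went unused. Their processed table, made with GeneSpring, holds linear intensity that equals the raw column times 1 constant per array (0.908 to 1.13). Background had been removed in some way, since the lowest raw values lie below 0. The method, the extraction settings and what the flags mean were not given in the sources used here.

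Here log2(raw intensity + 50) was quantile normalized, and limma 3.58.1 (lmFit and eBayes, R 4.3.3) was fitted to the whole set of 31741 probes without covariates, with two-sided tests and Benjamini-Hochberg adjustment across that set. A probe was called at an adjusted p under 0.05, and additionally at an absolute log2 fold change of at least 1 for the 2-fold call, as in the study's methods. Of the probes, 24740 carried 1 symbol, 977 several and 6024 none, and 1948 symbols were updated through RefSeq synonyms. The probe of highest mean represents a gene. The fit was checked on simulated data. The number of arrays limits the precision. Members and lists were chosen with earlier results of these data known. Named genes are the members, HOXA5, the 8 largest called changes and 5 complex partners of the list of 30, up to 3 genes by p of each smaller list, and the 5 profiles nearest to NASP. MMS22L, NPM1, CDAN1, PTMS and SPTY2D1 were named after their values were seen. Alternatives were other scalings, offsets of 16 and 100, the authors' values, a brightness filter, another variance model, the replicate number as a block, each array left out and, for gene counts, the mean of all probes of a gene. The sequences of the probes were not used here.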

Additional observations from a re-analysis of the deposited data

How the results depend on the processing

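Of 210 results of member probes under alternatives, 194 kept their side of the threshold, 16 lost the call, 0 gained it and 0 reversed after a call. Among the other named probes, 271 of 300 kept their side, 22 lost the call and 7 gained it. With the authors' processed values, 2907 probes passed the adjusted p in place of 6512 (1464 lower in place of 3035 and 1443 higher in place of 3477), and the cause was not tested. Taking the mean of all probes of a gene gave 6 member genes lower. Leaving out 1 array gave 3531 to 8229 probes in all, 1570 to 4073 lower and 1961 to 4156 higher, with fewer samples in each fit. The count of member genes that fell ranged from 3 to 7 (2 to 3 by at least 2-fold, where all arrays gave 4), and that of member probes from 5 to 9. In the list of other chaperones, 1 gene was higher with cyclic loess and 1 with an offset of 100. The shift of ASF1B relative to ASF1A ranged from -0.15 to 0.26 and reversed without HOXA5 replicate 2 (-0.15).

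With the replicate number as a block, 7756 probes passed and 7 member genes fell, as without the block, while 13.9% of all genes fell in place of 11.0%, and RBBP7 passed (limma, adjusted p = 0.0249). Same-numbered arrays correlated at -0.149, 0.642 and 0.733 in their deviations from the group means, over 15870 probes. Control replicates 2 and 3 correlated best with the HOXA5 array of their own number, and control replicate 1 with HOXA5 replicate 2 (0.259). These correlations do not settle whether same-numbered arrays are pairs, since the deviations of 3 arrays from their mean are not independent. The main fit was made without pairs.

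The ATRX probes lay near the lowest intensity at flag 0 (58 to 67).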
